A study of Mus musculus with 8 samples.

Results

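The genes described here are 8 Purkinje markers and neuronal-type genes outside the ion channel families, namely *Cntn2*, *Cpne5*, *Pcp4*, *Ntm*, *Ncam1*, *Ache*, *Chrm2* and *Syt12*, out of 53465 genes in the table. They were selected on their role and on their measured difference between the genotypes in these same libraries, so their levels and fold changes in that contrast are given as a description, with no p-value, and the calls made for them by the test across all genes support nothing. All 8 matched 1 Ensembl identifier each, and 7 of the 8 passed the filter on low counts, the exception being *Pcp4*. The RNA came from heart ventricles of mouse embryos at E15.5, in 4 *Nrg1GOF* and 4 wild-type (WT) libraries, each made from 1 ventricle sample according to the design text. *Nrg1GOF* embryos carried the Rosa26Nrg-1 allele together with a cardiac Cre, which the series title writes as Nkx2.5-Cre and the genotype field as Nkx5.5-Cre, so that neuregulin-1 is made where that driver has been active, mainly in the myocardial lineage. The labels give no allele for WT and no sex, litter or strain for either group, and they do not say whether the WT embryos were littermates or carried Cre or the transgene alone. Each library is labelled as a separate replicate, and p-values measure the spread between these libraries.

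Purkinje fibres are the fast-conducting cells at the end of the ventricular conduction system. They arise from trabecular cardiomyocytes, the inner layer of the embryonic ventricle on which endocardial neuregulin-1 acts through ErbB receptors, and they share part of their gene expression with neurons. *Cntn2* (contactin-2) is a cell adhesion molecule of axons and a marker of mature Purkinje fibres, *Cpne5* encodes a calcium-dependent phospholipid-binding copine, and *Pcp4* encodes a small calmodulin-binding protein first known from cerebellar Purkinje neurons. *Ntm* (neurotrimin) and *Ncam1* encode adhesion molecules of the immunoglobulin superfamily. *Ache* encodes acetylcholinesterase, which ends cholinergic signalling, *Chrm2* the muscarinic M2 receptor, through which the vagus nerve slows the heart, and *Syt12* a synaptotagmin of secretory vesicles.

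The start sites of 6 of the 8 genes were matched by symbol to promoter windows from RefSeq (GRCm38.p6), each 300 bases long, with 250 bases before and 50 after the start site. 4 of these are shown because they belong to 3 genes with higher transcript levels in *Nrg1GOF* (*Ache*, *Cntn2*, *Chrm2*) and to the gene that was almost undetected in both genotypes (*Pcp4*). Each reads 5′ to 3′ on the strand of its gene, and capitals mark CG dinucleotides.
*Ache*, chr5:137288004-137288303, plus strand: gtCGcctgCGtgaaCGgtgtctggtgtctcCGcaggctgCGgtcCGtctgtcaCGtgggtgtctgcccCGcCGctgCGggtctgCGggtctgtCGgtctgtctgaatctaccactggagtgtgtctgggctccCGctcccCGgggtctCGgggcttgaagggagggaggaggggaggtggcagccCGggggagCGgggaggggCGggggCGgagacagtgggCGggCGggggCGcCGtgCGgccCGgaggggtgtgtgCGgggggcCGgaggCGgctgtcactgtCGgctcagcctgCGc
*Cntn2*, chr1:132542891-132543190, minus strand: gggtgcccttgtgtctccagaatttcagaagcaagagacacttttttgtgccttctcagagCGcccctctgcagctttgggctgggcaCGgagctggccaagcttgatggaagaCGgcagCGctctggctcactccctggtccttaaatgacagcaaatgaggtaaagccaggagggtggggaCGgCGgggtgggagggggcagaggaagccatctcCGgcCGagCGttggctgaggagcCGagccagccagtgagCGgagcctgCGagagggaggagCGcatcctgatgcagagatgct
*Chrm2*, chr6:36387834-36388133, plus strand: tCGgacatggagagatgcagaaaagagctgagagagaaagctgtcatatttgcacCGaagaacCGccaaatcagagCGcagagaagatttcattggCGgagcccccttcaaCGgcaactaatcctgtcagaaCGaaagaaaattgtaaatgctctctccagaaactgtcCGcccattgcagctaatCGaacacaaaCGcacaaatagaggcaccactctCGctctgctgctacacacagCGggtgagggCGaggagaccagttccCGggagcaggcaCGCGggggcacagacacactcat
*Pcp4*, chr16:96467356-96467655, plus strand: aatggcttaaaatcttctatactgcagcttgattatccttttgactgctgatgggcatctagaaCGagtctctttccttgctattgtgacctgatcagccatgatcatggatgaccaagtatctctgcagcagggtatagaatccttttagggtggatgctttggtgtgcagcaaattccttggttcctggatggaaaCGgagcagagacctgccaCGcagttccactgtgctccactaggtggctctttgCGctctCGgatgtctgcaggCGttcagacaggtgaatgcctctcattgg

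The windows differed widely in base composition. That of *Ache* held 30 CG dinucleotides at 74.0% GC, that of *Chrm2* 16 at 52.7% GC, that of *Cntn2* 13 at 61.3% GC and that of *Pcp4* 6 at 48.7% GC, while *Cpne5*, not printed, held 32 at 74.7% GC. Over all 32851 windows the median was 7 CG dinucleotides at 52.7% GC, with quartiles of 3 and 20. *Ntm* has 2 windows, with 2 and 19 CG dinucleotides, and gene-level counts do not separate the transcripts that start at each. 6 short motifs were searched on both strands, and a match describes letters only. CCGGAA, the core of ETS factor sites, was found once, 108 bases before the start site of the second *Ntm* window, and is present in 14.9% of all windows. GTGTGA, a T-box half-site, was found once, next to the start site of the first *Ntm* window, against 14.5% of all windows. CAAGTG (NK2 factors, 13.6% of all windows), ACANNTGT (Iroquois factors, 7.38%), TATAAA (13.6%) and GGACAGC (part of the site of the neuronal repressor NRSF, 6.56%) were not in these letters in any window of the 6 genes. The last 30 bases of the *Ache* window and of both *Ntm* windows do not occur unbroken in a GENCODE M21 transcript of these genes. An exon that ends within these bases would give the same result, so this check does not show that the start sites differ. The *Ntm* windows, which end at 29413702 and 29412935, lie inside the GENCODE gene, which spans 28994750 to 29963141.

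Library totals ranged from 8038641 to 26786039 counts, with *Nrg1GOF* library 4 the shallowest. *Nrg1*, checked first, was at 59.7 to 63.7 CPM (counts scaled to a common library size) in *Nrg1GOF* and at 3.07 to 4.47 CPM in WT, with no library out of place. WT libraries 1 and 2 resembled each other (Pearson's r of log2 CPM across genes 0.989), as did WT libraries 3 and 4 (0.991), more than the other WT pairings (0.980 each). Across genes, which are not independent replicates, these coefficients describe closeness only. The labels name no batch for this split and do not say whether the libraries of a pair share a litter, a preparation or an embryo. If each pair were a repeat of 1 embryo, WT would hold 2 samples rather than 4, and the errors and p-values given here would be too small. With the counts of each pair added together, 2464 genes were called rather than 4467. The fold changes of the 7 genes that passed the filter are also given against each pair of WT libraries. Of 15580 genes tested, 28.7% were called (adjusted p under 0.05), 15.9% being higher and 12.8% lower in *Nrg1GOF*, and in 30.7% the groups did not overlap.

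Among the 8 genes, transcripts of *Syt12*, *Ache* and *Cntn2* showed the widest differences between the genotypes, *Chrm2* and *Cpne5* were moderately higher in *Nrg1GOF*, *Ntm* overlapped between the groups, *Ncam1* was slightly lower, and *Pcp4* was close to the limit of detection. Of the 7 genes tested, 6 were called, 5 higher and 1 lower, and in the same 6 the groups did not overlap. Because this contrast helped to choose the genes, nothing is read from these counts beside the 28.7% of all genes. The calls did not all hold, as *Cntn2* lost its call without *Nrg1GOF* library 1, 3 or 4 (log2 fold change 2.12, 2.08 and 2.07), with the counts of each WT pair added together (2.14), with libraries thinned to the smallest total (1.80) and with a covariate of atrial genes (1.32), and *Cpne5* lost its call with that covariate (0.22). In RNA of whole ventricles, fewer cells of a type and less RNA per cell cannot be told apart.

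**Figure D1:**
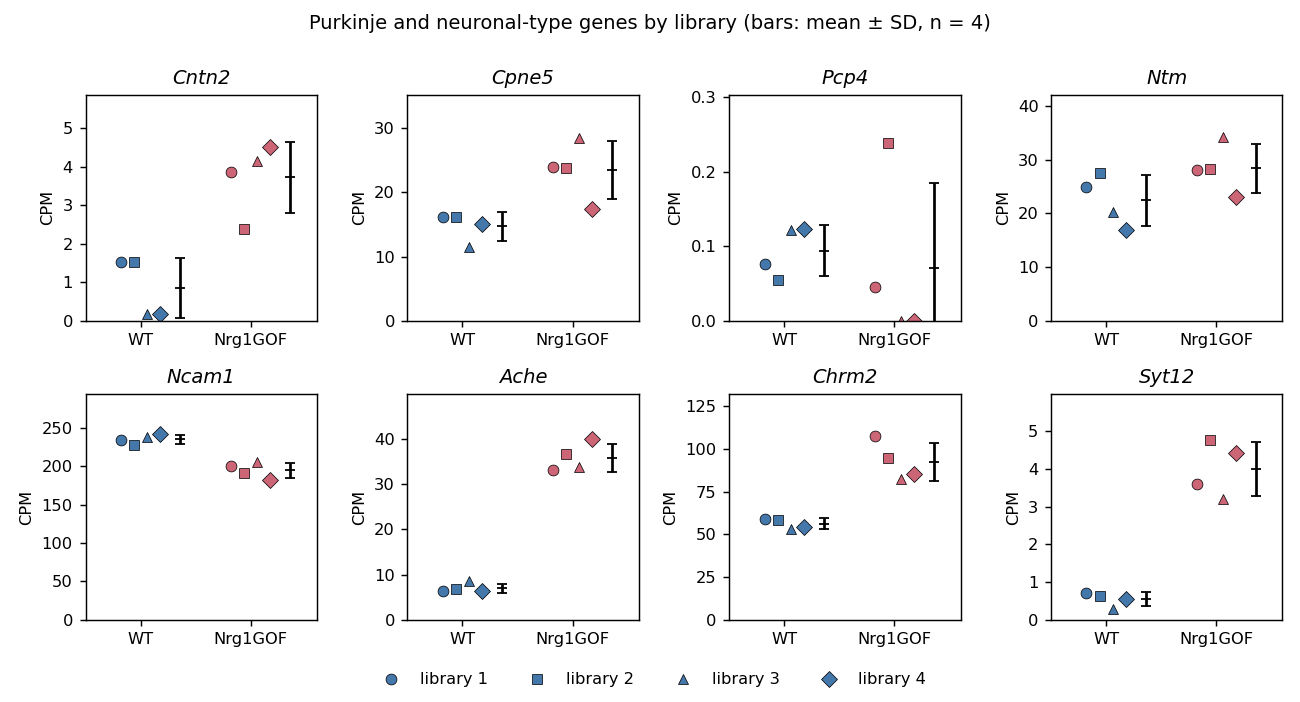
Level in CPM (y axis, linear, from 0) of the 8 genes in each WT (blue) and *Nrg1GOF* (red) library, with a symbol for each library number and black bars for mean ± SD (n = 4, the bar of *Pcp4* reaching below 0 is clipped). *Cntn2* was at 1.53 CPM in WT libraries 1 and 2 and at 0.16 CPM in WT libraries 3 and 4, and *Ntm* and *Pcp4* are the genes whose groups overlap.

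*Cntn2* (ENSMUSG00000053024, GRCm38 chromosome 1, 132509427 to 132543256, minus strand) was read at 3.86, 2.38, 4.15 and 4.50 CPM in *Nrg1GOF* libraries 1 to 4. In WT it was at 1.53, 1.53, 0.16 and 0.16 CPM, from 40, 28.03, 4 and 4 expected counts. All *Nrg1GOF* libraries were thus above all WT libraries, but the WT libraries fell into 2 levels that follow the pairs described above, with a ratio of 9.39 between the pair means, which is wider than the ratio of 4.40 between the genotype means. The group means were 3.72 ± 0.93 CPM in *Nrg1GOF* and 0.85 ± 0.79 CPM in WT (SD, n = 4 each). This gave a log2 fold change of 2.14 (SE 0.62). Against WT libraries 1 and 2 alone the log2 fold change was 1.26 (SE 0.30) and against WT libraries 3 and 4 alone 4.45 (SE 0.42). Leaving out WT library 3 or WT library 4 gave 1.79 each, and leaving out WT library 1 or 2 gave 2.67 and 2.54. With 4 counts in each of WT libraries 3 and 4, the higher of these values rests on very few reads.

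*Cpne5* (ENSMUSG00000024008, chromosome 17, 29155556 to 29238167, minus strand) was at 23.9, 23.8, 28.4 and 17.5 CPM in *Nrg1GOF* libraries 1 to 4 and at 16.1, 16.1, 11.4 and 15.1 CPM in WT libraries 1 to 4. The groups did not overlap, although *Nrg1GOF* library 4 lay close to the highest WT libraries. The log2 fold change was 0.69 (SE 0.15), from 14.7 ± 2.22 to 23.4 ± 4.51 CPM (SD, n = 4 each), with 0.56 (SE 0.16) and 0.84 (SE 0.19) against the WT pairs.

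*Pcp4* (ENSMUSG00000090223, chromosome 16, 96467606 to 96525793, plus strand) was represented by 15 expected counts in all 8 libraries together. It had 1, 5, 0 and 0 counts in *Nrg1GOF* libraries 1 to 4 and 2, 1, 3 and 3 counts in WT libraries 1 to 4, all but 1 of which are at or under 3 counts, the level taken as the floor of a library. The 0 counts in *Nrg1GOF* libraries 3 and 4 allow up to 0.128 and 0.375 CPM, respectively. No difference was detectable at this depth, and no fold change is given. This marker of adult Purkinje fibres therefore had almost no reads in ventricles of either genotype at E15.5, whereas its paralogue *Pcp4l1*, which encodes a protein of similar structure, was at 30.1 ± 3.86 CPM in the WT and 29.3 ± 2.57 CPM in the *Nrg1GOF* libraries (SD, n = 4 each, log2 fold change -0.04, SE 0.10, edgeR quasi-likelihood adjusted p = 0.779).

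*Ntm* (ENSMUSG00000059974, chromosome 9, 28994750 to 29963141, minus strand) was at 28.1, 28.2, 34.2 and 23.0 CPM in *Nrg1GOF* and at 25, 27.5, 20.2 and 17 CPM in WT. *Nrg1GOF* library 4 fell below WT libraries 1 and 2, so the groups overlapped. The log2 fold change was 0.36 (SE 0.16), and it was 0.13 (SE 0.13) against WT libraries 1 and 2 and 0.63 (SE 0.15) against WT libraries 3 and 4. As for *Cntn2*, the WT pairs differed, here by a ratio of 1.41, which exceeds the ratio of 1.27 between the genotypes.

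*Ncam1* (ENSMUSG00000039542, chromosome 9, 49502136 to 49798925, minus strand) was the most abundant of the 8 genes and the one that was lower in *Nrg1GOF*. It was at 200, 191, 205 and 183 CPM in *Nrg1GOF* libraries 1 to 4 and at 234, 228, 238 and 242 CPM in WT. The ranges were separate and narrow, and the log2 fold change was -0.27 (SE 0.05), with -0.25 and -0.29 against the WT pairs. Its SD on the log2 scale within genotypes was 0.058, the lowest among the 7 genes tested, where *Cntn2* had the highest at 1.12.

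*Ache* (ENSMUSG00000023328, chromosome 5, 137287519 to 137294466, plus strand) was at 33.1, 36.8, 33.7 and 39.9 CPM in *Nrg1GOF* and at 6.31, 6.82, 8.49 and 6.35 CPM in WT. The lowest *Nrg1GOF* library was far above the highest WT library, and the WT pairs were alike. The group means of 35.9 ± 3.12 and 6.99 ± 1.03 CPM (SD, n = 4 each) differed by 2.35 on the log2 scale (SE 0.11), with 2.44 and 2.27 against the WT pairs.

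*Chrm2* (ENSMUSG00000045613, chromosome 6, 36388084 to 36528414, plus strand) was at 107, 94.5, 82.4 and 85.5 CPM in *Nrg1GOF* and at 59.3, 58.6, 53.1 and 54.5 CPM in WT. Every *Nrg1GOF* library exceeded every WT library, with a log2 fold change of 0.72 (SE 0.09), and the log2 fold change was 0.65 and 0.79 against the WT pairs.

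*Syt12* (ENSMUSG00000049303, chromosome 19, 4445908 to 4477447, minus strand) was at 3.61, 4.76, 3.19 and 4.41 CPM in *Nrg1GOF* and at 0.70, 0.63, 0.29 and 0.56 CPM in WT. WT libraries held only 7.09 to 18.3 expected counts. The ranges were well apart, and the log2 fold change was 2.88 (SE 0.28), with 2.60 and 3.20 against the WT pairs.

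*Ache*, *Chrm2*, *Ncam1* and *Syt12* share exonic bases with genes annotated on the other strand, and whether reads were counted by strand is not given in the sources used here. The overlapping genes held few counts. Over the 8 libraries, *9330158H04Rik* had 550 counts beside 12232 for *Chrm2*, *A930001C03Rik* 48 beside 340 for *Syt12*, *Gm11149* 18 beside 36743 for *Ncam1*, and *Gm42456* was listed at 0 beside 3264 for *Ache*. *Pcp4* shares exonic bases with *Igsf5* on the same strand, which was not analysed here, nor was *AC162182.2*, which lies opposite *Cpne5*.

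Levels were compared between genes as CPM per kb of exonic sequence. In WT the order was *Ncam1* (27.2 ± 0.69 CPM per kb), *Chrm2* (9.31 ± 0.50), *Ntm* (2.78 ± 0.58), *Ache* (1.51 ± 0.22), *Cpne5* (1.08 ± 0.16), and then *Syt12*, *Pcp4* and *Cntn2* at 0.098, 0.091 and 0.091 (SD, n = 4). The last 3 did not differ beyond their spread, while the libraries of the neighbours above them were separate. In *Nrg1GOF* the level of *Ache* was above that of *Ntm*, with 7.76 ± 0.67 against 3.51 ± 0.57 CPM per kb, *Syt12* was at 0.72 ± 0.13, *Cntn2* at 0.40 ± 0.10 and *Pcp4* was lowest at 0.069 ± 0.11 (SD, n = 4 each), and the libraries of neighbouring genes in this order were separate. Even where its relative difference was wide, *Cntn2* thus remained a transcript of low abundance. These levels use all annotated exonic bases of a gene, which for *Cpne5* are 13571, and a gene that uses a short transcript is understated.

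Within genotypes the genes did not move as a block. *Cntn2*, *Cpne5*, *Ntm*, *Chrm2* and *Syt12* had a higher mean in WT libraries 1 and 2 than in 3 and 4, whereas *Ache*, *Ncam1* and *Pcp4* had a lower one. After subtraction of the genotype means, log2 CPM of *Ntm* correlated with that of *Cntn2* at 0.70 and of *Cpne5* at 0.68, while *Cpne5* and *Ache* were opposed at -0.85. These are descriptions over 8 libraries that share the WT pairs and the depth of *Nrg1GOF* library 4. By the same measure, the genes whose deviations were most like the mean of the 7 were *Skil*, *Epha4*, *Prss23*, *Hip1* and *Plxdc2*, with r from 0.987 to 0.990 among 13041 genes compared.

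**Figure D2:**
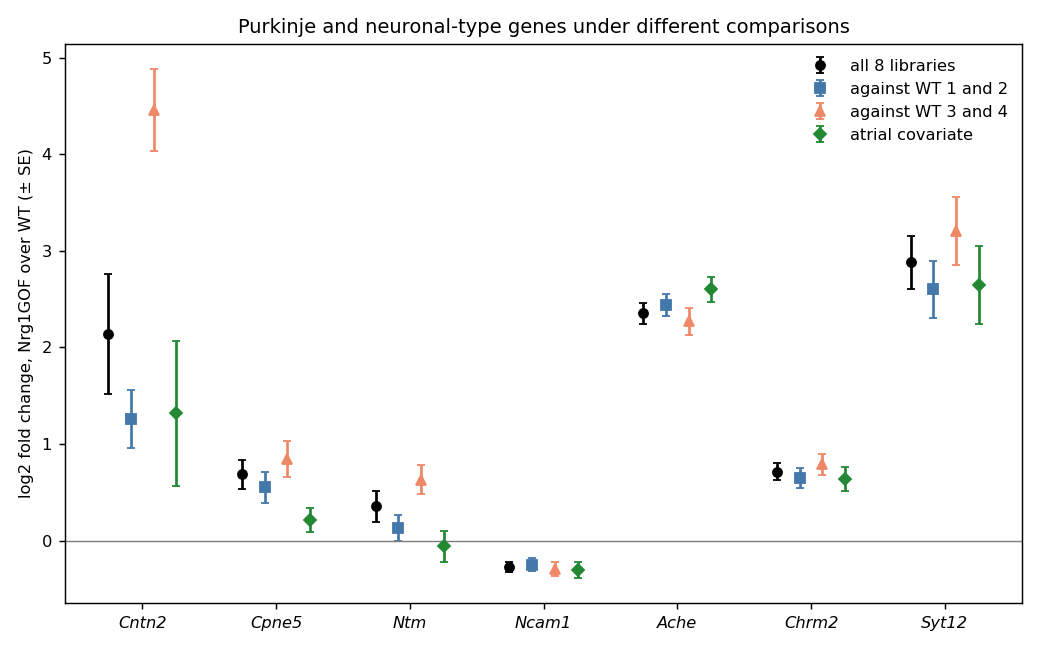
Log2 fold change of *Nrg1GOF* over WT (y axis, points with ± SE) for the 7 genes that passed the filter, from all 8 libraries, against WT libraries 1 and 2, against WT libraries 3 and 4, and with a covariate of atrial genes. *Cntn2* moves from 1.26 to 4.45 with the choice of WT libraries, and *Cpne5* and *Ntm* are at 0.22 and -0.06 with the covariate. *Ache* spans 2.27 to 2.60, *Syt12* 2.60 to 3.20, *Chrm2* 0.64 to 0.79 and *Ncam1* -0.30 to -0.25 over the same comparisons.

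Several of the marker lists of other cell types differed between the genotypes, and their counts stand beside 15.9% of all genes called higher and 12.8% called lower. The libraries had the defining ventricular genes *Myl2* and *Myh7* at 4481 and 17606 CPM in WT. 5 of 6 genes listed as ventricular markers were called lower in *Nrg1GOF*, the exception being *Myl2*. *Myl3* lost its call in each fit that left out a library except *Nrg1GOF* library 4 (adjusted p = 0.0680 to 0.115 by the same edgeR test). *Tnnt2*, whose groups overlapped, lost its call without *Nrg1GOF* library 1 or 2 or WT library 3 or 4 (adjusted p = 0.0553 to 0.0672). With the WT pairs summed, *Myl3*, *Tnnt2* and *Irx4* lost theirs (adjusted p = 0.0687 to 0.199). The 6 atrial markers summed to 166 to 283 CPM in WT and 318 to 556 CPM in *Nrg1GOF*, with 3 of 6 called higher, among them *Myl7*, an atrial myosin light chain (1.24 on the log2 scale, SE 0.23, edgeR quasi-likelihood adjusted p = 0.00320). The other two, *Nr2f2* and *Dkk3*, each lost their call without *Nrg1GOF* library 1, 2 or 3 or WT library 3, *Nr2f2* also without WT library 1 or 2 and *Dkk3* also without WT library 4 (adjusted p = 0.0587 to 0.111 by edgeR). In WT this sum was 283 and 263 CPM in libraries 1 and 2 and 166 and 191 CPM in libraries 3 and 4, the same split as for *Cntn2*. The sums of the sinoatrial, epicardium and fibroblast, macrophage and erythroid lists were also higher in WT libraries 1 and 2 than in 3 and 4, and those of the Schwann cell and glia and of the ventricular lists were lower. *Myl7* itself was at 176, 156, 88.9 and 106 CPM in WT libraries 1 to 4. With the mean log2 level of the atrial markers as a covariate, the log2 fold change was 1.32 (SE 0.75) for *Cntn2*, 0.22 (SE 0.12) for *Cpne5* and -0.06 (SE 0.16) for *Ntm*, and 2.60 (SE 0.13) for *Ache*, 2.65 (SE 0.40) for *Syt12*, 0.64 (SE 0.13) for *Chrm2* and -0.30 (SE 0.08) for *Ncam1*. This covariate was itself higher in *Nrg1GOF*, and why the fold changes moved with it was not tested.

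Markers of sinoatrial node cells were mixed, with *Shox2* and *Vsnl1* higher (log2 fold changes 1.88 and 1.98, SE 0.35 and 0.41, edgeR quasi-likelihood adjusted p = 0.00309 and 0.00530), *Smoc2* not called (-0.18, SE 0.08) and *Isl1* too low to test. With the atrial covariate *Shox2* and *Vsnl1* lost their calls (log2 fold changes 0.70 and 0.66, adjusted p = 0.0963 and 0.115). *Vsnl1* followed the WT split as well, at 2.60, 2.45, 0.61 and 1.39 CPM in WT libraries 1 to 4, and *Shox2* was at 2.22, 2.13, 0.97 and 1.43 CPM. Exons of *Shox2* overlap those of *Rsrc1* on the opposite strand, which held 6520 counts beside its 653. The 4 sinoatrial markers summed to 21 to 28.3 CPM in WT and 25.8 to 35.3 CPM in *Nrg1GOF*. The 7 markers of epicardium and fibroblasts summed to 1862 to 2425 CPM in WT and 3306 to 4420 CPM in *Nrg1GOF*, with 6 higher and 1 lower, and the 4 macrophage markers, all called higher, to 33.9 to 40.8 and 72.8 to 83.6 CPM. *Upk3b*, called higher, lost its call without *Nrg1GOF* library 4 or WT library 3 or 4 (edgeR adjusted p = 0.0513 to 0.0558). *Upk3b* and *Tbx18*, the lower gene, lost theirs against WT libraries 1 and 2 (adjusted p = 0.104 and 0.0935) and with the WT pairs summed (adjusted p = 0.0656 and 0.0649). Exons of the macrophage marker *Csf1r* overlap those of *Hmgxb3* on the opposite strand, which held 8022 counts beside its 4334. Endothelial markers lay between 839 and 863 CPM in WT and 847 and 926 CPM in *Nrg1GOF*, with *Npr3* called higher. Erythroid markers summed to 4403 to 13005 CPM in WT and 5415 to 8878 CPM in *Nrg1GOF*. The part of these lists in the differences of the 8 genes was not tested, apart from the atrial covariate.

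Markers of neurons and glia were at low levels, and their part in the differences of the 8 genes was not tested. The 13 neuron markers summed to 9.38 to 10.9 CPM in WT and 10.3 to 13.9 CPM in *Nrg1GOF*, and the 9 markers of Schwann cells and neural crest glia to 13.8 to 18.6 and 10.9 to 19.1 CPM. *Ncam1* alone exceeded both sums in every library. *Sox10*, which defines neural crest glia, was at 0.24 ± 0.19 (WT) and 0.72 ± 0.65 CPM (*Nrg1GOF*) (SD, n = 4 each). It was too low to test, its groups overlapped, and its highest value was 1.67 CPM (39 counts) in *Nrg1GOF* library 3. Of the genes for noradrenaline synthesis in sympathetic neurons, *Th* was at a mean of 0.061 (WT) and 0.18 CPM (*Nrg1GOF*) and *Dbh* at 0.87 and 0.95 CPM. Of 8 neuron markers tested, the tubulin gene *Tubb3* was higher (from 0.44 ± 0.11 to 2.07 ± 1.02 CPM, SD, n = 4 each, log2 fold change 2.26, SE 0.41, edgeR quasi-likelihood adjusted p = 0.00266) and the neurofilament gene *Nefl* was lower (-0.76, SE 0.24, adjusted p = 0.0411), the latter losing its call in each fit that left out a library except *Nrg1GOF* library 3 (adjusted p = 0.0614 to 0.106). Of 4 glial markers tested, *Cdh19* and *Ngfr* were higher and *Fabp7* was lower. With the atrial covariate *Tubb3* lost its call (log2 fold change 1.36, edgeR adjusted p = 0.186), as did *Nefl*, *Cdh19*, *Ngfr* and *Fabp7* (adjusted p = 0.0507 to 0.177).

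**Figure D3:**
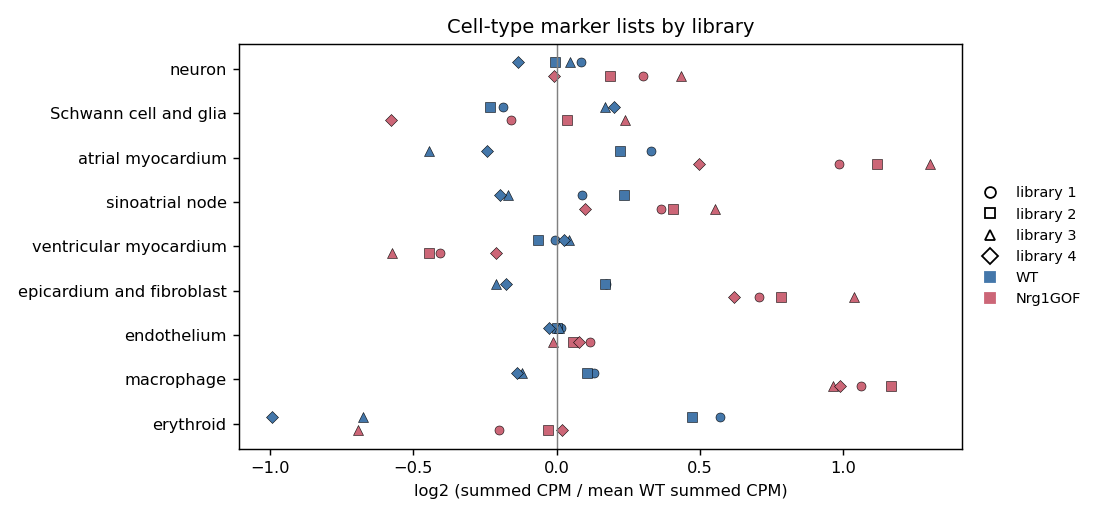
Summed CPM of each cell-type marker list relative to the WT mean (x axis, log2) for WT (blue) and *Nrg1GOF* (red) libraries, with a symbol for each library number. Atrial, epicardial and fibroblast and macrophage sums are higher in all *Nrg1GOF* libraries than in all WT libraries, ventricular sums are lower, and neuron and glial sums overlap.

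Genes related to the 8 by pathway or family were then compared in 5 lists, with the test across all 15580 genes. No list was tested as a set, and the lists were drawn up by family or role with earlier results of these data known.

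Of 22 conduction and trabecular genes, all were tested and 18 were called (81.8%, against 28.7% of all genes), 15 higher and 3 lower, with a median log2 fold change of 0.55 against -0.01 over all genes. The list holds *Irx1*, *Irx2*, *Irx3*, *Gja5* and *Bmp10*, markers the study examined in these samples, so it is not independent evidence of a direction. The widest rises were those of *Nppa*, the atrial natriuretic peptide gene of trabecular myocardium, at 2.48 (SE 0.16, edgeR quasi-likelihood adjusted p = 9.92e-06), of the homeobox gene *Irx3* at 1.39 (SE 0.13, adjusted p = 7.31e-05) and of *Sema3a*, which encodes a secreted axon guidance molecule that patterns cardiac innervation, at 1.10 (SE 0.10, adjusted p = 6.79e-05). *Sema3a* went from 25.7 ± 1.92 (WT) to 55.2 ± 7.46 CPM (*Nrg1GOF*) (SD, n = 4 each). The 3 lower genes were *Gata6* at -0.43 (SE 0.05, adjusted p = 0.000179), *Hopx* at -0.35 (SE 0.09, adjusted p = 0.0136) and *Kcne1*, a potassium channel subunit, at -0.23 (SE 0.06, adjusted p = 0.0209). *Kcne1* lost its call without *Nrg1GOF* library 1, WT library 1 or WT library 2 (adjusted p = 0.0559, 0.0549 and 0.0533), and *Hopx* and *Kcne1* lost theirs with counts of each WT pair added together (adjusted p = 0.0871 and 0.116). Among the higher genes, *Irx1* lost its call without *Nrg1GOF* library 2 or WT library 1 or 2 (adjusted p = 0.0525, 0.0502 and 0.0518). *Scn10a* lost its call without *Nrg1GOF* library 2 or 3 or WT library 1, 2 or 4 (adjusted p = 0.0520 to 0.0999). Both lost theirs with the WT pairs summed (adjusted p = 0.0904 and 0.114). With the atrial covariate *Hcn4*, *Tbx3*, *Tbx5*, *Scn10a*, *Hopx* and *Kcne1* were not called (adjusted p = 0.159 to 0.327 by edgeR).

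Of 34 cholinergic genes 15 were tested and 5 were called, each higher. Their share of 33.3% is near the 28.7% of all genes called in either direction, while 15.9% of all genes were called higher. Beside *Ache*, *Colq*, which encodes the collagen tail that anchors acetylcholinesterase in the matrix, rose from 15.1 ± 1.18 to 26.5 ± 1.96 CPM (SD, n = 4 each, log2 fold change 0.80, SE 0.08, edgeR quasi-likelihood adjusted p = 0.000122). *Bche*, for the related butyrylcholinesterase, was at 97.7 ± 8.95 and 105 ± 15.1 CPM (SD, n = 4 each, adjusted p = 0.490), and was more abundant than *Ache* in CPM in both genotypes. *Prima1*, for the membrane anchor of acetylcholinesterase, was too low to test at a mean of 0.25 (WT) and 0.28 CPM (*Nrg1GOF*).

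Downstream of the M2 receptor, *Gnai1*, a Gi alpha subunit, rose by 0.52 on the log2 scale (SE 0.10, edgeR quasi-likelihood adjusted p = 0.00357), *Gnao1*, the Go alpha subunit, rose by 0.49 with overlap between the groups (SE 0.13, adjusted p = 0.0167), and *Rgs6*, which speeds the shut-off of this signal in the heart, rose by 0.72 (SE 0.11, adjusted p = 0.00103). *Rgs6* was at 20.9 ± 2.26 (WT) and 34.1 ± 4.51 CPM (*Nrg1GOF*) (SD, n = 4 each). *Gnai2*, the most abundant of the alpha subunits and of the genes not called, was at 482 ± 14.8 and 497 ± 28.9 CPM (SD, n = 4 each, log2 fold change 0.04, SE 0.06, adjusted p = 0.609). *Kcnj3* and *Kcnj5*, the subunits of the potassium channel that the receptor opens, were not called, with log2 fold changes of 0.03 (SE 0.13) and -0.08 (SE 0.08).

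Of the other receptors, *Chrm3* was at 1.77 ± 0.49 and 1.83 ± 0.44 CPM (SD, n = 4 each), and *Chrm1*, *Chrm4* and *Chrm5* were too low to test. The embryonic muscle-type nicotinic subunit *Chrng* rose by 1.10 (SE 0.31, edgeR quasi-likelihood adjusted p = 0.0223) from 1.00 ± 0.29 CPM in WT, with overlap between the groups. *Chat* and *Slc18a3*, which define neurons that make and store acetylcholine, were listed at 0 in all WT libraries and at means of 0.011 and 0.043 CPM in *Nrg1GOF*. *Slc5a7*, the choline transporter gene of the same neurons, was at 1.44 ± 0.25 (WT) and 0.76 ± 0.66 CPM (*Nrg1GOF*) (SD, n = 4 each) and was not called (-0.92 on the log2 scale, SE 0.57). The median log2 fold change of the tested cholinergic genes was 0.11, and the count of 5 called genes fell to 3 with each WT pair added together and to 2 with the atrial covariate. *Chrng* lost its call without *Nrg1GOF* library 1 or 2 or WT library 1, 2 or 3 (adjusted p = 0.0540 to 0.0689), without *Nrg1GOF* library 2 the count was 3, as *Gnao1* was lost as well (adjusted p = 0.0558), and *Colq* shares exonic bases with *Gm49387* on the same strand, so that reads could be divided between them.

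**Figure D4:**
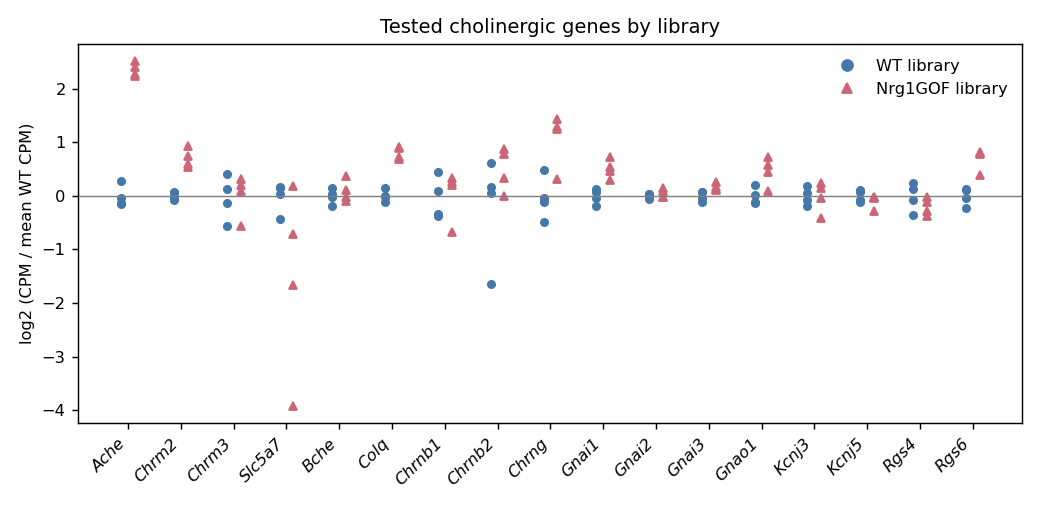
Level of *Ache*, *Chrm2* and the 15 tested cholinergic genes in each library as log2 of CPM over the mean WT CPM (y axis), with WT libraries as blue circles and *Nrg1GOF* libraries as red triangles. *Ache*, *Colq*, *Chrm2*, *Gnai1* and *Rgs6* separate the genotypes, as does *Gnai3* without being called, and *Kcnj3*, *Kcnj5*, *Gnai2* and *Bche* overlap.

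Neural adhesion genes of the families of *Cntn2*, *Ntm* and *Ncam1* were mostly of low abundance. Of 25 listed, 16 were tested and 7 were called (43.8%, against 28.7% of all genes), each higher (15.9% of all genes), with a median log2 fold change of 0.63. *Alcam*, an immunoglobulin adhesion molecule of neurons and of the epicardium, rose from 40.7 ± 3.37 to 77.1 ± 7.51 CPM (SD, n = 4 each, log2 fold change 0.93, SE 0.08, edgeR quasi-likelihood adjusted p = 6.79e-05). *Cadm3* and *Cadm1*, which encode synaptic cell adhesion molecules, rose by 1.23 (SE 0.19, adjusted p = 0.00124) and 0.35 (SE 0.08, adjusted p = 0.00948). *Cadm3* shares exonic bases on the same strand with *Ackr1*, which held 47 counts beside its 295. *Mcam*, *Cntn4*, *Iglon5* and *Nrcam* were the other called genes and are named after their values were seen, with log2 fold changes of 0.26, 1.44, 1.29 and 1.56 (SE 0.05, 0.34, 0.36 and 0.27), the last 3 at means from 0.33 to 1.18 CPM. *Iglon5* lost its call without *Nrg1GOF* library 2 or WT library 2 (adjusted p = 0.0715 and 0.0558 by edgeR).

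Within the contactins, *Cntn1* was at 0.96 ± 0.47 (WT) and 1.03 ± 0.30 CPM (*Nrg1GOF*), and *Cntn3* at 1.35 ± 0.43 and 0.85 ± 0.20 CPM (SD, n = 4 each), neither of them called. Within the IgLON family of *Ntm*, *Opcml*, *Lsamp* and *Negr1* were not called, with log2 fold changes of 0.28, 0.61 and 0.65 (SE 0.23, 0.35 and 0.29). *Ncam2* was too low to test, in contrast to the abundant *Ncam1*. *Cadm4*, the most abundant gene that was not called, differed by -0.35 on the log2 scale (SE 0.17, edgeR quasi-likelihood adjusted p = 0.147). The count of 7 fell to 4 when the WT pairs were summed and to 2 with the atrial covariate.

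The copine family was measurable for *Cpne1*, *Cpne2*, *Cpne3* and *Cpne8* besides *Cpne5*. *Cpne2* rose from 4.91 ± 0.29 to 7.17 ± 0.75 CPM (SD, n = 4 each, log2 fold change 0.55, SE 0.12, edgeR quasi-likelihood adjusted p = 0.00700). *Cpne1* was called higher at 1.42 (SE 0.35, adjusted p = 0.0130), but it shares exonic bases on the same strand with *Rbm12* and *Gm28036*, which hold 9167 and 9702 counts beside its 1463, so that its value is uncertain. *Cpne3*, the most abundant copine at 73.0 ± 6.68 (WT) and 71.8 ± 7.65 CPM (*Nrg1GOF*) (SD, n = 4 each), was not called (-0.02, SE 0.09).

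Among calmodulin and its partners, *Camk2a* and *Camk2d*, encoding calcium/calmodulin-dependent kinase subunits, fell by 0.57 (SE 0.07, edgeR quasi-likelihood adjusted p = 0.000429) and 0.36 (SE 0.05, adjusted p = 0.000840) on the log2 scale, while *Camk2b* rose by 0.40 (SE 0.12, adjusted p = 0.0283). *Camk2d*, the main cardiac form, went from 267 ± 14.8 to 208 ± 2.79 CPM (SD, n = 4 each). *Calm3*, the most abundant gene that was not called, was at 262 ± 9.18 and 261 ± 18.2 CPM (SD, n = 4 each). Of 19 genes in this list 14 were tested and 6 were called (42.9%, against 28.7% of all genes), 4 higher and 2 lower, with a median log2 fold change of 0.046. *Camk2b* lost its call without *Nrg1GOF* library 1 or 2 or WT library 2 or 3 (adjusted p = 0.0545 to 0.0787), and the count fell to 2 with the atrial covariate.

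Among synaptotagmins and SNARE genes, which serve vesicle fusion, 21 of 30 were tested and 7 were called. Their share of 33.3% is near the 28.7% of all genes called in either direction. Of the 7, 6 were higher and 1 was lower, beside 15.9% and 12.8% of all genes, and the median log2 fold change was 0.18. *Syt11* was called higher at 0.46 (SE 0.13, edgeR quasi-likelihood adjusted p = 0.0271) and *Cplx2*, for complexin-2, at 0.19 (SE 0.06, adjusted p = 0.0448), while *Syt7* was called lower at -0.28 (SE 0.09, adjusted p = 0.0455). *Vamp2*, the most abundant gene that was not called, was at 69.2 ± 19.2 and 70.0 ± 13.4 CPM (SD, n = 4 each).

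2 further synaptotagmins, noted after their values were seen, changed most beside *Syt12*. *Syt6* went from 0.15 ± 0.085 to 1.24 ± 0.27 CPM (SD, n = 4 each, log2 fold change 2.91, SE 0.39, edgeR quasi-likelihood adjusted p = 0.000520) and *Syt9* from 0.21 ± 0.064 to 0.66 ± 0.072 CPM (SD, n = 4 each, log2 fold change 1.68, SE 0.33, adjusted p = 0.00390). WT libraries 1 to 4 held only 3, 1, 6 and 5 counts of *Syt6* and 6, 5, 3 and 5 counts of *Syt9*, near the floor of 3. *Syt9* lost its call against WT libraries 1 and 2 (adjusted p = 0.0628) and with the atrial covariate (adjusted p = 0.149). *Vamp3*, a vesicle SNARE of non-neuronal cells, was called higher at 0.18 (SE 0.05, adjusted p = 0.0306 by the same edgeR test), and lost its call without *Nrg1GOF* library 1 or 2 or WT library 1, 3 or 4 (adjusted p = 0.0548 to 0.0950). The classical neuronal forms *Syt1* and *Snap25* stayed low, at means of 0.28 and 0.23 CPM in WT and 0.55 and 0.19 CPM in *Nrg1GOF*, and *Syt1* was not called. *Syt11* lost its call without *Nrg1GOF* library 1, 2 or 3 or WT library 3 or 4 (adjusted p = 0.0611 to 0.0789), *Cplx2* in each fit that left out a library except *Nrg1GOF* library 3 (adjusted p = 0.0544 to 0.118), and *Syt7* in each except WT library 4 (adjusted p = 0.0662 to 0.134). The count itself was 3 without *Nrg1GOF* library 1 or 2 and 4 without WT library 1, 3 or 4.

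**Figure D5:**
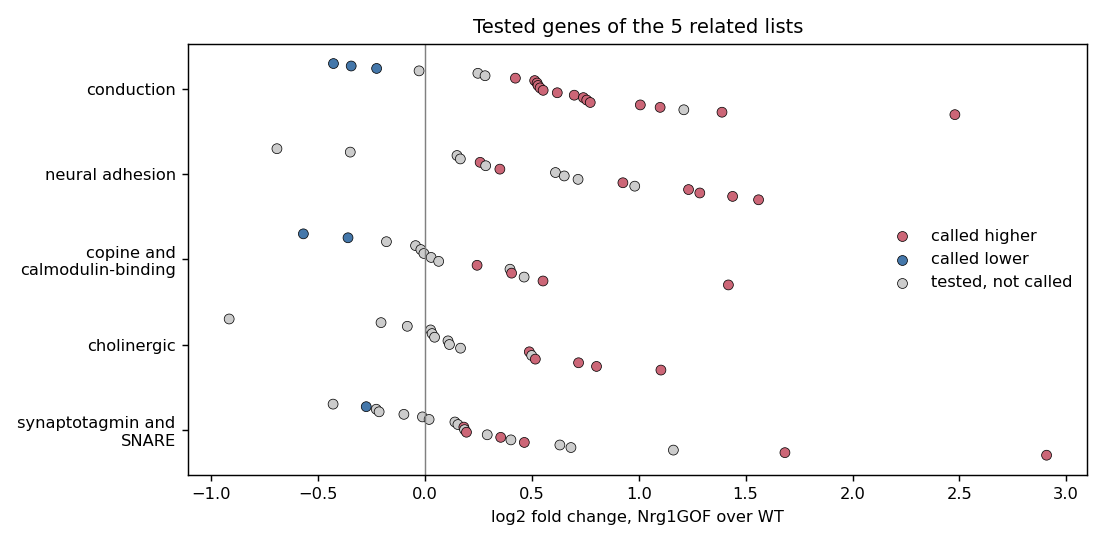
Log2 fold change of *Nrg1GOF* over WT (x axis) of the tested genes in the 5 related lists (y axis, sorted within each list), with called genes in red (higher) or blue (lower) and the rest in grey. 15 of 22 conduction genes are called higher, whereas in the cholinergic and synaptotagmin lists 10 of 15 and 14 of 21 genes are not called.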

How the data were processed

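Poly(A) RNA was sequenced in 8 libraries as single reads of 60 bases from 100 ng of RNA. The authors deposited estimated counts (expected counts) per gene, which the submitters' processing notes credit to cutadapt and RSEM 1.3.1 on GRCm38. The table's name gives the annotation release, while the aligner and strand setting are not given in the sources used here. Of 53465 identifiers, 53274 were matched to a symbol, and all sample columns were used. Groups and replicate numbers came from the sample titles.

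The expected counts were rounded, filtered with filterByExpr and scaled by TMM. The genotype contrast was fitted in edgeR 4.0.16 (R 4.3.3) with genotype as the sole term and tested by quasi-likelihood, the study having used a generalised linear model of edgeR. P values were two-sided and adjusted by Benjamini-Hochberg over 15580 genes, and under 0.05 a gene is described as called. CPM refers to the scaled library size, and SE was obtained by dividing the size of each log2 fold change by the square root of its F statistic. Within-genotype deviations used log2 CPM with a prior count of 2. The test was checked on simulated counts. A count of 3 stood for 0.115 to 0.375 CPM, which covers counting error only, as reads had no molecular identifiers. Gene models came from GENCODE M21 and promoters from RefSeq, both on GRCm38. No protein sequences were used here.

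The 8 genes and all lists were chosen with earlier results of these data known. In each list, genes were named by rule: among called genes whose average log2 CPM was 0 or more, 3 from the top and 3 from the bottom by log2 fold change, plus the most abundant gene not called. Some genes that this rule names are not reported here. Other genes are named as relatives of the 8 or of a marker list. Replicate numbers are shared between the genotypes, but the labels do not tie them to a litter or batch, and they were used only in an alternative. Alternatives were other scalings, filters and tests (DESeq2 1.42.0, limma 3.58.1), the replicate block, each library left out, the WT pairs summed or alone, thinning to the smallest total and an atrial covariate.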

Additional observations from a re-analysis of the deposited data

Results flagged for a closer look

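The total of *Nrg1GOF* library 4, 8038641 counts, stood apart from the other *Nrg1GOF* libraries, which held 20578081 to 22547833. Its distance to the nearest of them was 0.864 of the spread of the 4 totals, beyond Dixon's critical value at the 95% level. The same comparison was made for 48 sets of 4 values (the 8 genes, the totals and the summed lists, in each genotype), and no other set had such a library, while chance flags about 1 in 20. Without this library the log2 fold change was 2.07 for *Cntn2*, 0.80 for *Cpne5*, 0.44 for *Ntm*, -0.23 for *Ncam1*, 2.31 for *Ache*, 0.76 for *Chrm2* and 2.85 for *Syt12*.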

How the results depend on the processing

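The alternatives gave 880 values, of which 758 left both direction and call as they were or, for counts and untested values, stayed near the reported one. Called genes fell from 4467 to 2464 (1548 higher, 916 lower) when the WT pairs were summed and to 1707 (1050 higher, 657 lower) with the atrial covariate, and 1308 were lower against WT libraries 1 and 2 alone. With single libraries left out they ranged from 3239 to 4261. Neural adhesion calls went from 7 to 4 with at least 10 counts in every library, with the WT pairs summed and with thinning, and to 2 with the covariate. Copine and calmodulin-binding calls went from 6 to 2 with the covariate. Cholinergic calls went from 5 to 3 with the WT pairs summed and to 2 with the covariate, and ranged from 3 to 6 as libraries were left out. Synaptotagmin and SNARE calls went from 7 to 4 with no filter, to 3 with the WT pairs summed, to 2 against WT libraries 1 and 2 (10 against WT libraries 3 and 4), with thinning and with the covariate, and ranged from 3 to 9 as libraries were left out. Summing and leaving out remove samples, and the filter and thinning change the genes or counts tested. For the covariate and the WT pairs the cause was not tested. Conduction calls stayed within 13 to 19.

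*Calm3*, near 0, reversed to 0.037 when scaled by library total, 0.026 against WT libraries 3 and 4, 0.012 with thinning and 0.014 with the covariate, and ranged from -0.041 to 0.025 as libraries were left out. *Vamp2* reversed to -0.28 against WT libraries 3 and 4 and ranged from -0.12 to 0.15 as libraries were left out. The cause was not tested. Under scaling to totals alone, 65.4% of calls were higher (2474 of 4467 as reported), with a shift of 0.044 in the median over all genes. With at least 10 counts in every library *Cntn2* and *Syt12* were not tested. Over the alternatives that gave a value the log2 fold change ranged from 1.26 to 4.45 for *Cntn2*, 0.22 to 0.84 for *Cpne5*, -0.06 to 0.63 for *Ntm*, 2.26 to 2.60 for *Ache*, 0.61 to 0.79 for *Chrm2*, 2.60 to 3.20 for *Syt12* and -0.30 to -0.23 for *Ncam1*.

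Deviations of libraries with the same replicate number correlated at 0.13, 0.049, 0.20 and 0.067, so the numbers were not taken to pair the libraries. With the replicate block 4524 genes were called (2407 higher, 2117 lower), and 18 conduction, 7 neural adhesion, 6 copine and calmodulin-binding, 6 cholinergic and 6 synaptotagmin and SNARE genes. Depth limits *Pcp4*, *Cntn2* and *Syt12* most.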
